A study of Homo sapiens with 54 samples.

Results

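Among RH4 rhabdomyosarcoma cells profiled by single-cell RNA sequencing after 16 h in DMSO or P3FI-90, a small set carried transcripts of differentiated skeletal muscle. A cell was included when it had at least 200 genes, under 15% of its counts from mitochondrial genes, and at least 5 unique molecular identifiers (UMIs, each 1 captured transcript) summed over TNNC2, MYH3, TNNC1, SMPX and MYBPH. The cells were thus selected on the counts of these 5 genes, called the selecting genes below. In all, 271 of 22998 cells met the rule, 155 of 12542 in DMSO (1.24%, 95% Clopper-Pearson interval 1.05 to 1.44) and 116 of 10456 after P3FI-90 (1.11%, 0.918 to 1.33). They were compared with the 7730 DMSO and 7072 P3FI-90 cells that had no UMI of the selecting genes and at least 4000 UMIs, called comparison cells. Because the rule reads measured counts, the selecting genes are described here and given no test.

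RH4 is an established fusion-positive rhabdomyosarcoma line with the PAX3-FOXO1 fusion transcription factor, with the genotype given as wt in the labels of every group used here. P3FI-90, written PFI-90 in the labels, was studied as an inhibitor of histone lysine demethylases. The single-cell culture received 1 µM of it, according to the methods. There was 1 single-cell library per condition, so no difference between conditions or cells has a replicate check, and the intervals given cover counting error only. Bulk RNA-seq of RH4 cultured for 24 h comprised 3 DMSO libraries, 3 P3FI-90 libraries (labelled 1 µM in replicates 3 and 4 and lo in replicate 1) and 2 libraries of P3FI-63 (10 µM), a related compound. RH4 tumors grown subcutaneously in immunodeficient NSG mice gave 2 DMSO and 2 P3FI-90 libraries after 5 days of treatment. The tumors are labelled muscle tissue. They grew in a mouse host, whose cells can enter such samples, and removal of mouse reads is not stated. H3K4me3 ChIP-seq of the 24 h cultures had 3 DMSO and 3 P3FI-90 libraries. All of these samples come from 1 cell line.

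Skeletal muscle forms when dividing myoblasts express MYOD1, then switch on myogenin and MEF2 factors, leave the cell cycle and build sarcomeres. The sarcomere slides myosin thick filaments along actin thin filaments, and calcium starts the movement by binding troponin C within a complex of troponins C, I and T. Fast and slow fibers use different troponin and myosin genes, and embryonic and neonatal myosin heavy chains come before the adult ones. Rhabdomyosarcoma cells carry the myogenic factors but mostly keep dividing without completing this program.

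By median, the myocyte-like cells were no shallower than the comparison cells, which alone had a floor of 4000 UMIs. The median depth of the myocyte-like cells was 13617 UMIs in DMSO and 21702 after P3FI-90, against 11595 and 14924 in the comparison cells. Their lower quartile was below that of the comparison cells in DMSO (5186 against 7332 UMIs) and above it after P3FI-90 (12436 against 10940). Of the 271, 24 DMSO and 5 P3FI-90 cells had under 4000 UMIs. Mitochondrial counts had medians of 5.13 and 5.83%, against 6.81 and 6.89% in comparison cells. The libraries shared 34 cell barcodes, none of them belonging to a myocyte-like cell in both. None of these cells were among the 3% with the highest doublet scores in either library.

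The selecting genes were uneven from cell to cell. TNNC2, fast troponin C, was detected in 80.0% of the DMSO myocyte-like cells and 71.6% of those after P3FI-90. TNNC1, the troponin C of slow and cardiac muscle, was found in 78.7 and 77.6%. Fast and slow troponin C were thus detected at like frequency. Both are selecting genes, so these frequencies are shaped by the rule and do not tell what kind of cell this is. MYBPH, a thick-filament protein of the myosin-binding family, was detected in 93 of 155 and 93 of 116 (80.2%), MYH3, the embryonic myosin heavy chain, in 51.6 and 53.5%, and SMPX, a small muscle protein of the costamere, in 35.5 and 54.3%. All 5 genes were seen in 18 DMSO and 25 P3FI-90 cells, and a single one in 10 and 6. Leaving out TNNC1 left 99 and 80 cells with at least 5 UMIs.

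Most cells met the rule narrowly while a few carried most of the transcripts. Just inside the threshold, 33 DMSO and 19 P3FI-90 cells had 5 UMIs, and 28 and 15 had 6. Just outside it, 60 and 41 cells had 4 UMIs, and 90 and 53 had 3. Median sums were 8 and 9 UMIs, and the highest were 759 and 466. The 10 DMSO cells and 18 P3FI-90 cells with at least 60 UMIs held 59.8 and 73.5% of the selecting-gene UMIs of their libraries' myocyte-like cells. The strongest DMSO cell had 389 UMIs of TNNC2, 202 of TNNC1, 75 of MYH3, 70 of MYBPH and 23 of SMPX, with none of MKI67 or TOP2A, a pair of proliferation genes. The strongest P3FI-90 cell had 247 UMIs of TNNC1 and 151 of TNNC2, again with none of either proliferation gene. Other strong cells did carry them. Among the 5 strongest cells of each library, the third and the fifth in DMSO had 5 and 8 UMIs of MKI67 with 40 and 106 of the G2 and mitosis genes together, and the second, the third and the fifth after P3FI-90 had 9, 16 and 4 of MKI67 with 186, 130 and 46.

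**Figure D1:**
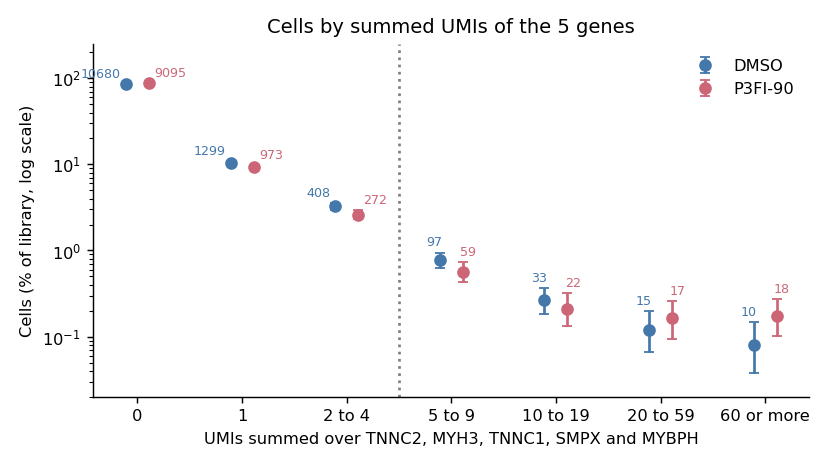
Share of cells in each single-cell library (vertical axis, percent on a log scale) by the number of UMIs summed over the 5 selecting genes (horizontal axis), with 95% Clopper-Pearson intervals and the number of cells printed at each point. The dotted line marks the threshold of 5 UMIs. Shares decline from 85.2 and 87.0% at 0 UMIs to 0.0797 and 0.172% at 60 or more.

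When each cell was thinned to 4000 UMIs, 49 of 9313 DMSO cells (0.526%, 0.389 to 0.695) and 32 of 8346 P3FI-90 cells (0.383%, 0.262 to 0.541) still had at least 5 UMIs. At 20 or more the shares were 0.0644% (6 cells, 0.0236 to 0.140) and 0.120% (10 cells, 0.0575 to 0.220). The DMSO share was the higher at the lower threshold and the P3FI-90 share at the upper one, and the intervals overlapped at both. A difference in the frequency of myocyte-like cells between conditions was not detectable at this depth.

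Outside the selecting genes, 7681 genes had a mean of at least 10 CPM over the pooled myocyte-like and pooled comparison cells of each library, where CPM is a gene's share of the summed counts on its usual scale. Of these, 126 (1.64%) were at least 2-fold higher and 7 (0.0911%) at least 2-fold lower in the myocyte-like cells of both libraries. Of the 126, 75 also reached 10 CPM in the comparison cells alone. The other 51 passed the filter through the cells where they were high and were bound to appear different, so the counts describe the set and support nothing further.

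The highest of the weaker ratios were those of HSPB3, COX6A2 and TNNT3. HSPB3, a small heat shock protein of muscle, was at 53.1 CPM (95% Poisson interval 44.8 to 62.6) in DMSO myocyte-like cells against 0.536 in comparison cells, and at 80.1 CPM (69.8 to 91.4) against 0.428 after P3FI-90. COX6A2, the heart and skeletal muscle isoform of a cytochrome c oxidase subunit, was at 30.6 against 0.291 CPM and 38.6 against 0.428. TNNT3, fast troponin T, was at 66.4 against 1.24 CPM and 92.6 against 1.17. These 3 genes were close to absent from the comparison cells, at most 1.94% of which had a UMI of any one of them.

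The fast myosin light chains MYLPF and MYL1 and fast troponin I followed. MYLPF, the fast regulatory light chain, was at 4500 CPM (4420 to 4580) against 103 in DMSO and 5120 (5030 to 5200) against 83.3 after P3FI-90. It was detected in 98.7 and 99.1% of myocyte-like cells and in 40.1 and 36.0% of comparison cells. After thinning to 4000 UMIs the shares were 96.2 and 95.5% against 23.2 and 16.5%, so the gap was wider at equal depth. MYL1, the fast alkali light chain, was at 1020 against 27.4 CPM and 1360 against 23.8. TNNI2, fast troponin I, was at 450 against 30.1 CPM and 524 against 26.4.

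Other genes in the upper 12 had varied roles. CSRP3, a LIM protein of the Z-disc, was at 29.5 against 1.44 CPM in DMSO and 35.6 against 1.41 after P3FI-90. SMYD1, a muscle methyltransferase needed for myosin assembly, was at 26.2 against 1.21 and 27.5 against 1.41, and HFE2 (HJV), hemojuvelin, at 32.8 against 2.11 and 41.5 against 1.84. NAV3, a neuron navigator protein, HRH1, the histamine H1 receptor, RARRES2, which encodes chemerin, and RP11-1L9.1 completed the 12, with log2 ratios of 4.02 to 5.91. All 12 remained at least 2-fold higher in each of 8 other ways of choosing or weighting the cells. Of the 12, only MYLPF and MYL1 also reached 10 CPM in the comparison cells. The others passed the filter through the myocyte-like cells and were bound to stay higher, so this adds no support for them.

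**Figure D2:**
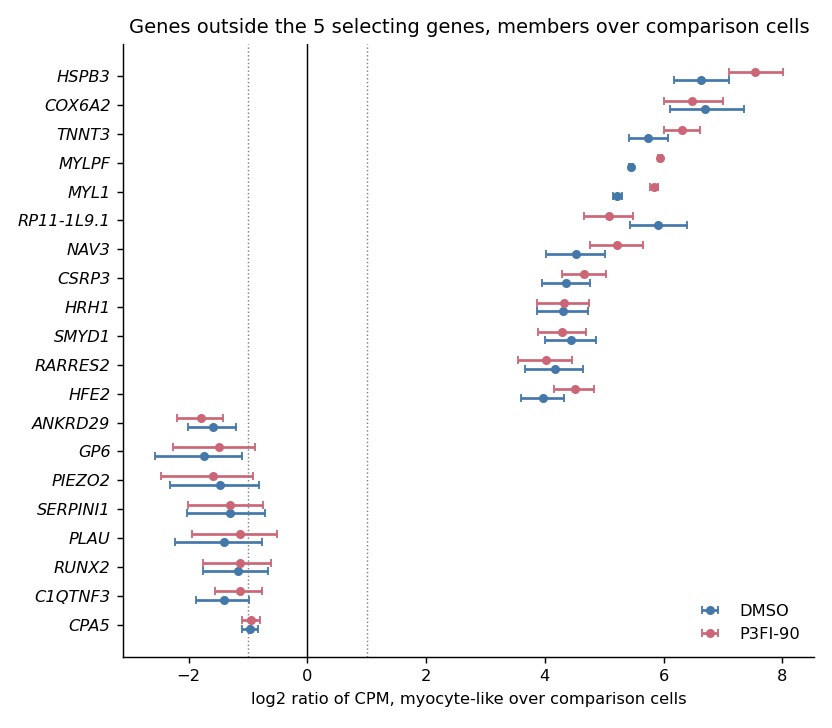
Log2 ratio of CPM in pooled myocyte-like cells over pooled comparison cells (horizontal axis) for the 12 genes with the highest and the 8 with the lowest weaker ratio (vertical axis), with intervals from counting error, in 1 library per condition. Dotted lines mark 2-fold. The 12 upper genes lie at 3.97 or above in both libraries, and the 8 lower ones between -1.78 and -0.95.

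RefSeq promoters were available for 9 of the 17 genes made up of the selecting genes and these 12. Entries were missing for TNNC2, MYH3 and TNNC1 among the selecting genes. The windows of MYBPH, SMPX, HSPB3 and COX6A2 are shown as examples. MYBPH and SMPX are at 0 in comparison cells by the rule, and HSPB3 and COX6A2 passed the filter through the myocyte-like cells. A MYL1 window with 1 E-box and no MEF2 match, and another with 1 MEF2 match and no E-box, are not shown. Each window runs from 250 bases before to 50 after the start site on GRCh38.p14, written 5′ to 3′ on the gene's strand. Capitals mark E-boxes (CANNTG, the core bound by MYOD1 and myogenin) and the MEF2 consensus on either strand. The MYBPH window lies on the minus strand of chromosome 1 from 203175777 to 203176076, SMPX on the minus strand of X from 21758067 to 21758366, HSPB3 on the plus strand of chromosome 5 from 54455449 to 54455748 and COX6A2 on the minus strand of chromosome 16 from 31428311 to 31428610.
MYBPH: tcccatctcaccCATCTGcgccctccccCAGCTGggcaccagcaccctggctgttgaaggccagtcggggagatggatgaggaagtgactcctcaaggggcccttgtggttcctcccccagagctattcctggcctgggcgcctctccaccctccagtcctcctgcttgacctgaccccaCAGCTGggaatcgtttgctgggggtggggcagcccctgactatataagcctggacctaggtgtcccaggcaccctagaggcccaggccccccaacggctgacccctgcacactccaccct
SMPX: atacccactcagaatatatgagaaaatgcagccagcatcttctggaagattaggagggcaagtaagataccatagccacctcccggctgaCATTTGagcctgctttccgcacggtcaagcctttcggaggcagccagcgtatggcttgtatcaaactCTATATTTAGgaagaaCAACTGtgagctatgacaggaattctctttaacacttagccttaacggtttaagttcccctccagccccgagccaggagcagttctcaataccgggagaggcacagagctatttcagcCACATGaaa
HSPB3: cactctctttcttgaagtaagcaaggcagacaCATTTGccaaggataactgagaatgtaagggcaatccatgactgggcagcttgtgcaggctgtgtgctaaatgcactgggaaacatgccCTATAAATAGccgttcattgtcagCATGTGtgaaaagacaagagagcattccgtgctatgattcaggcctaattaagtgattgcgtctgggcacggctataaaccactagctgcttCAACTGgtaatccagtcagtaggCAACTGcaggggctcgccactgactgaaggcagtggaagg
COX6A2: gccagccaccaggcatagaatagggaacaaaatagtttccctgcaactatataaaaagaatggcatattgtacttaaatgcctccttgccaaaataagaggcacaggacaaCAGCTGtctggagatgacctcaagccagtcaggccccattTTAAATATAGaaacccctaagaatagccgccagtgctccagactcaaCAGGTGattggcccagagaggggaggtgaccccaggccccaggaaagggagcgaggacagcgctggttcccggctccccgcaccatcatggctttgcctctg

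SMPX, HSPB3 and COX6A2 each held 1 match to the MEF2 consensus beside 2 to 4 E-boxes, and MYBPH held 3 E-boxes and no MEF2 match. Of the 126 higher genes, 80 had a promoter entry and 22 of those (27.5%) held the MEF2 consensus, against 3.67% of 27305 genes with an entry. The E-box CAGCTG was found in 38.8% against 21.1% and any CANNTG in 77.5% against 73.1%. The motif TATAAA, searched on both strands, was found in 23.8% against 14.0%. The CAGCTG matches are a subset of the CANNTG matches, and TATAAA can overlap the MEF2 consensus. These are matches of letters and say nothing of binding. The 80 include genes that passed the filter through the myocyte-like cells, such as HSPB3 and COX6A2. The 27305 were not limited to genes past the filter. The shares are thus not compared like with like and were not tested.

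Sarcomere genes were higher as a class. Of 59 contractile genes outside the rule, 29 passed the filter and 22 were at least 2-fold higher in both libraries, while none were 2-fold lower. The median log2 ratio of the 29 was 1.74 in DMSO and 1.94 after P3FI-90, against -0.03 and -0.06 over all 7681 genes. For the 22 that also reached 10 CPM in the comparison cells the medians were 1.50 and 1.64, with 15 at least 2-fold higher. The remaining 30 genes were below the filter.

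Slow and cardiac thin-filament genes were mostly higher as well, by smaller ratios than the fast gene TNNI2. ACTC1, cardiac alpha-actin, which is also used by immature skeletal muscle, was at 4470 against 1620 CPM in DMSO and 5310 against 1470 after P3FI-90. TNNI1, slow troponin I, was at 3130 against 1030 and 3570 against 943, and TNNT2, cardiac troponin T, at 951 against 390 and 897 against 313. TNNT1, slow troponin T, did not reach 2-fold, at 3350 against 2550 and 2850 against 2240. The fast gene TNNI2 had log2 ratios of 3.90 and 4.31, while the slow and cardiac troponins that passed the filter had 0.35 to 1.92. TNNT3, at 5.74 and 6.30, passed the filter through the myocyte-like cells. Its ratios were bound to be large and add no support.

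Among the myosin heavy chains outside the rule, MYH8 passed the filter on mean CPM, while MYH7, MYH2 and MYH1 did not. MYH8, the neonatal form, was at 20.3 against 1.37 CPM in DMSO and 34.2 against 0.873 after P3FI-90. MYH7, the slow form, had 36 UMIs in the DMSO myocyte-like cells (13.3 against 0.0940 CPM) and 24 after P3FI-90 (8.81 against 0.0329), and did not reach the filter. MYH2, an adult fast form, had 22 and 35 UMIs, and MYH1 had none in either library. TTN, titin, was at 2630 against 833 CPM and 2360 against 614, and MYBPC2, fast myosin-binding protein C, at 27.7 against 2.43 and 29.7 against 2.40.

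Several transcripts of mature muscle were scarce. CKM, muscle creatine kinase, had 10 UMIs in all DMSO myocyte-like cells and 23 after P3FI-90, and ACTA1, skeletal alpha-actin, had 1 and 3. ACTN2, the alpha-actinin of the Z-disc, had 22 and 42. DES, desmin, was by contrast at 844 against 289 CPM and 927 against 288. CRYAB, a small heat shock chaperone of the Z-disc, was at 122 against 31.9 and 126 against 31.8. For CRYAB, 1 cell held 126 of 330 UMIs in DMSO and 1 cell held 172 of 342 after P3FI-90. Without cells at 60 or more selecting-gene UMIs its log2 ratios were 0.84 and -0.35, so its higher level rested on few cells.

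Calcium handling, fusion and junction genes were higher in part. Of 11 measured genes of excitation-contraction coupling, 7 were at least 2-fold higher in both libraries, but 5 of those were under 10 CPM in the comparison cells. CASQ2, a calcium buffer of the sarcoplasmic reticulum, was at 104 against 8.69 CPM in DMSO and 178 against 7.90 after P3FI-90. HRC, another luminal calcium-binding protein, was at 23.2 against 1.87 and 34.5 against 1.10. TMEM8C (MYMK, myomaker), which fuses myoblasts, was at 42.8 against 4.78 and 40.0 against 3.63. For the neuromuscular junction, 2 of 6 measured genes were 2-fold higher, 1 of them under 10 CPM in the comparison cells, and CHRNA1, the acetylcholine receptor alpha subunit, had log2 ratios of 0.39 and 0.34.

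Myogenin and MEF2C were higher and MYOD1 was not. MYOD1, which marks the committed lineage, was at 355 against 326 CPM in DMSO and 278 against 257 after P3FI-90. MYOG, myogenin, was at 254 against 111 and 305 against 103. MEF2C, a partner of the myogenic factors in late differentiation, was at 386 (363 to 410) against 77.0 and 450 (425 to 476) against 95.1. MYOG and MEF2C were the 2 of 9 measured myogenic factors that reached 2-fold in both libraries. MYF5 had no UMI in these cells.

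Cell cycle transcripts were only slightly lower over the whole set. None of 34 G2 and mitosis genes and none of 24 S phase genes were 2-fold lower, with median log2 ratios of -0.20 and -0.34 in DMSO and -0.29 and -0.37 after P3FI-90. CDKN1A, the inhibitor p21 of cyclin-dependent kinases, was at 68.6 against 27.4 CPM and 105 against 29.9. At 4000 UMIs per cell, 86.3% of DMSO myocyte-like cells (79.2 to 91.6) had at least 6 UMIs of G2 and mitosis genes, against 85.7% of comparison cells. After P3FI-90 the shares were 69.4% (59.9 to 77.8) and 81.2%. The DMSO interval included the comparison value, and the P3FI-90 interval lay below it. These intervals cover counting error in 1 library each, and the sets differed in make-up. Cells at 60 or more selecting-gene UMIs were 10 of 131 in DMSO and 18 of 111 after P3FI-90. At 5 to 19 such UMIs the shares were 95.3 and 77.6%, the DMSO one above its comparison value.

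Most PAX3-FOXO1 targets were near the comparison level. Of 16 measured PAX3-FOXO1 targets, 3 were 2-fold higher in both libraries and none lower, and the median log2 ratios were -0.15 and -0.13. RASSF4, a Ras association domain protein, was at 299 against 98.1 CPM and 261 against 81.4, and DCX, doublecortin, at 172 against 18.7 and 267 against 18.9. The 7 genes lower in both libraries were ANKRD29, GP6, PIEZO2, SERPINI1, PLAU, RUNX2 and C1QTNF3. PIEZO2, a mechanically gated channel, had log2 ratios of -1.47 and -1.59, and RUNX2, a bone lineage factor, was at 11.1 against 25.2 CPM and 9.92 against 22.1. Of 5 measured muscle energy genes 2 were 2-fold higher, COX6A2, which passed the filter through the myocyte-like cells, and CKB, brain-type creatine kinase, the latter at 632 against 232 CPM and 703 against 209. Of 12 apoptosis genes BCL2L1, the survival protein BCL-xL, was 2-fold higher, at 20.7 against 8.83 CPM and 22.4 against 9.53, and also passed the filter through the myocyte-like cells. None of 14 genes of the ATF4 response, 6 ID and Notch genes or 2 metallothioneins reached 2-fold in both libraries. MT2A, a metallothionein, was at 477 against 714 and 490 against 852.

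The label of the cells was checked with markers outside the rule. All 8 further myocyte markers were detected, and together they were at 10700 CPM in DMSO against 1850 in comparison cells and at 12600 against 1680 after P3FI-90. ACTC1 (4470 and 5310 CPM) and MYLPF (4500 and 5120) held most of these counts. ACTC1 also held most of those in the comparison cells (1620 and 1470). CKM was at only 3.69 and 8.45 CPM and ACTN2 at 8.12 and 15.4. Markers of other cell types were read in the same way. Of 5 endothelial genes in the files the myocyte-like cells had 2 UMIs in DMSO and 1 after P3FI-90, of 6 immune genes 8 and 3, of 6 epithelial genes 7 and 3, from KRT8 and KRT18, and of 7 neural genes 1 and 0. EPCAM, KRT5, PTPRC, LYZ, KDR, VWF, STMN2 and GAP43 were at 0 in both libraries. The 9 smooth muscle genes were together at 1010 against 397 CPM in DMSO and 1080 against 394 after P3FI-90. DES, which skeletal muscle also expresses, held most of these counts, and DES and SYNPO2 were 2-fold higher, while the smooth muscle myosin MYH11 had 2 and 1 UMI, ACTA2 0 and 2, and LMOD1 none. The 10 cardiac genes were together at 1010 against 442 CPM and 953 against 358, mostly from TNNT2, with MYH6, MYL7, MYBPC3 and PLN at 0 and NKX2-5 at 46.5 against 47.5 and 42.2 against 39.0. Fibroblast genes were at 287 against 411 CPM and 263 against 408, mostly COL3A1, with THY1 and FAP at 0. Their part in the differences above was not tested. Of a published myocyte signature 13 genes were measured, 9 of them at least 2-fold higher and 1 lower. Of the 9 genes of it that also reached 10 CPM in the comparison cells, 5 were higher, and the other 4 higher genes passed the filter through the myocyte-like cells. None of 20 measured genes of a published myoblast signature were 2-fold higher or lower in both libraries. The study used both signatures on these libraries.

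Contractile transcripts also stood above the comparison cells one cell at a time. At 4000 UMIs per cell, the contractile genes outside the rule had a median of 95 UMIs (range 41 to 395) in 131 DMSO myocyte-like cells and 40 in comparison cells. After P3FI-90 the medians were 101 (28 to 369) in 111 cells and 34. The 99th percentile of the comparison cells, 79 and 75 UMIs, was passed by 70.2 and 81.1% of the myocyte-like cells. The remainder overlapped the comparison cells.

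**Figure D3:**
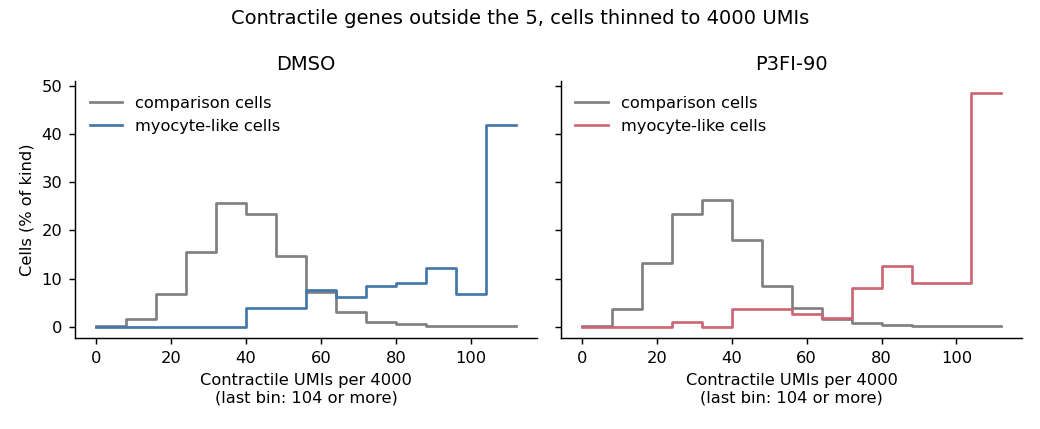
Distribution of UMIs of contractile genes outside the 5 selecting genes (horizontal axis, UMIs per 4000, last bin 104 or more) in cells thinned to 4000 UMIs, as a percentage of each kind of cell (vertical axis), for DMSO (left) and P3FI-90 (right). Medians are 95 and 101 in the myocyte-like cells and 40 and 34 in comparison cells, and the curves overlap from 41 UMIs in DMSO and 28 after P3FI-90 up to the last bin.

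The program was graded with the number of selecting-gene UMIs. Bins of cells with at least 4000 UMIs are described here without a test, since the bins come from the rule, and deeper cells reach higher bins. MYLPF was at 2370 CPM in DMSO cells with 5 to 9 UMIs, 4030 at 10 to 19, 7220 at 20 to 59 and 11600 at 60 or more. After P3FI-90 it was at 3000, 4210, 5340 and 10300. MYL1, TNNI2 and ACTC1 were likewise highest in the top bin of both libraries. Below the threshold the order held too, with MYLPF at 237 and 234 CPM in cells with 1 UMI and 878 and 1060 in those with 2 to 4.

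The cells at 60 or more UMIs differed from those at 5 to 9 in regulators and cell cycle genes. MEF2C was at 1320 CPM (1180 to 1460) in the 10 DMSO cells against 259 at 5 to 9, and at 862 (786 to 944) in the 18 P3FI-90 cells against 307. CDKN1A was at 180 against 44.9 and 191 against 74.8. MYOD1 was at 433 against 333 in DMSO and 216 against 321 after P3FI-90, opposite directions in the libraries. MKI67 was at 58.6 (32.8 to 96.6) against 350 CPM in DMSO, and at 141 (111 to 176) against 157 after P3FI-90.

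The G2 and mitosis genes as a whole followed MKI67. The G2 and mitosis genes together were at 1060 CPM (936 to 1190) in the DMSO top bin against 4710 at 5 to 9, and at 2850 (2700 to 2990) against 3440 after P3FI-90. At 4000 UMIs per cell, at least 6 such UMIs were found in 2 of 10 DMSO cells (interval 2.52 to 55.6%) and 8 of 18 P3FI-90 cells (44.4%, 21.5 to 69.2) at the top. At 5 to 19 selecting-gene UMIs the shares were 95.3% of 106 and 77.6% of 76 cells. The intervals of the top bins overlap each other.

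**Figure D4:**
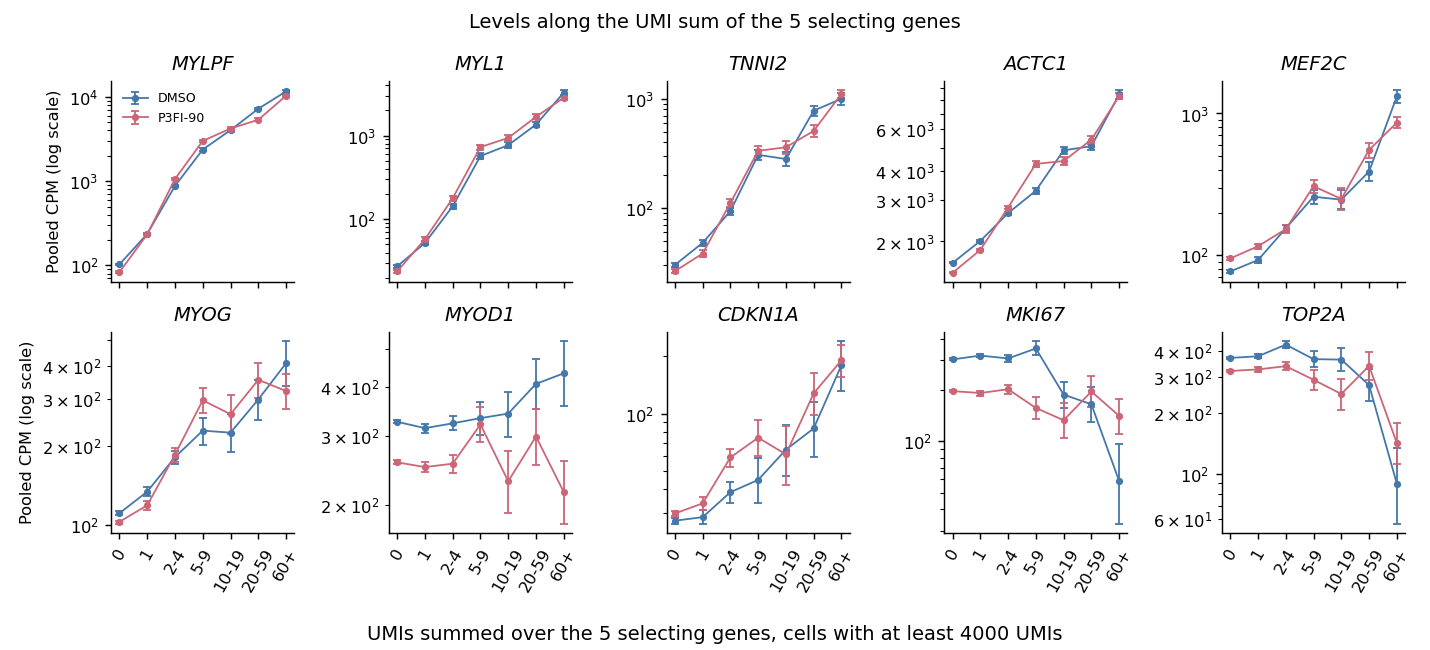
Pooled CPM (vertical axes, log scale, with 95% Poisson intervals) of 10 genes by the number of UMIs of the 5 selecting genes (horizontal axis) in cells with at least 4000 UMIs, for 1 DMSO and 1 P3FI-90 library. MYLPF goes from 103 and 83.3 CPM at 0 UMIs to 11600 and 10300 at 60 or more, while MKI67 goes from 302 to 58.6 in DMSO and from 197 to 141 after P3FI-90.

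Myocyte-like cells after P3FI-90 were next set against those in DMSO. Of 7896 genes, 21 (0.266%) were at least 2-fold higher and 23 (0.291%) at least 2-fold lower in pooled CPM. In the comparison cells the counts were 13 (0.165%) and 3 (0.0380%) of 7902. The P3FI-90 set held more cells of the top bin, 18 against 10, and with each cell weighted equally the counts were 73 and 177.

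In several of the largest differences 1 cell held a large part of the UMIs. FLG, filaggrin, a protein of the epidermis, had no UMI in DMSO myocyte-like cells and 61 after P3FI-90, of which 39 were in 1 cell and 22 in others. TCHH, trichohyalin, a protein of the hair follicle, had 7 and 98 UMIs, with 82 of the latter in 1 cell and 16 in others. PPP1R27, a phosphatase regulatory subunit, had 29 UMIs in DMSO and 84 after P3FI-90, 64 of them in 1 cell and 20 in others. SLN, sarcolipin, an inhibitor of the calcium pump, had 126 DMSO UMIs, 62 of them in 1 cell and 64 in others, and 29 after P3FI-90. Without that cell PPP1R27 had fewer UMIs after P3FI-90 than in DMSO, while FLG, TCHH and SLN kept their direction. SLN was nevertheless detected in 11 DMSO and 16 P3FI-90 cells. Its log2 ratio of -2.107 became -1.235 with each cell weighted equally and -0.268 after thinning. Without cells at 60 or more selecting-gene UMIs it was 0.0791, so a lower SLN level after P3FI-90 was not stable.

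The remaining genes of the 6 highest and 6 lowest were spread over more cells. BDNF, a neurotrophin, was at 5.90 CPM with UMIs in 13 DMSO cells and 17.6 with UMIs in 27 P3FI-90 cells, but its log2 ratio of 1.55 became 0.28 with each cell weighted equally. FAM200A was at 17.3 CPM in DMSO, with UMIs in 35 cells, and 6.24 after P3FI-90, with UMIs in 14. ERCC6L, a helicase of the mitotic centromere, was at 22.9 CPM with UMIs in 46 cells and 9.18 in 23. TST, a mitochondrial sulfurtransferase, and PLP2, a membrane protein, had log2 ratios of -1.41 and -1.29. In comparison cells the log2 ratios of these 4 lower genes were -0.58 to 0.01.

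The stress genes DDIT3 and DDIT4 were spread over more cells. DDIT3, the transcription factor CHOP, was at 31.0 CPM with UMIs in 42 DMSO cells and at 91.4 CPM with UMIs in 63 P3FI-90 cells, and in comparison cells it was at 18.5 and 95.4. DDIT4, an inhibitor of mTOR signaling, was at 8.86 and 27.2 CPM, and in comparison cells at 9.23 and 29.5. Both genes were thus higher after P3FI-90 in myocyte-like and comparison cells alike, with log2 ratios of 1.56 and 1.60 in the former and 2.37 and 1.67 in the latter. Over 17 genes of the ATF4 and amino acid response, the median log2 ratio was 0.57 in myocyte-like and 0.78 in comparison cells. ELN, elastin, had 171 UMIs in DMSO myocyte-like cells, 44 of them in 1 cell, and 60 after P3FI-90 (log2 ratio -1.51), and was at 51.9 and 53.0 CPM in comparison cells.

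Contractile levels were set side by side at a matched number of selecting-gene UMIs, but cell depth was not matched. Median depth of the myocyte-like cells was 13617 UMIs in DMSO and 21702 after P3FI-90. At these depths the same sum is a smaller share of a cell's counts after P3FI-90. The part of depth in the differences below was not tested. Contractile genes outside the rule were together at 20900 CPM in DMSO and 22700 after P3FI-90 at 5 to 9 UMIs, 27000 and 24700 at 10 to 19, 34500 and 30900 at 20 to 59, and 66800 and 53300 at 60 or more. P3FI-90 was the higher in the lowest of these bins and the lower in the other 3. The median log2 ratio of P3FI-90 to DMSO over 39 contractile genes was 0.10 in all myocyte-like cells and -0.19 in comparison cells.

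The bulk libraries were used to ask whether the selecting genes and the genes high beside them changed with treatment. In bulk RNA, fewer cells of a type and less RNA per cell cannot be told apart. Values are TPM, transcript abundances scaled for gene length and library total, and log2 differences are on the log2(TPM + 1) scale, from limma with Benjamini-Hochberg adjustment over all genes tested. The same DMSO libraries serve both 24 h comparisons. The titles of a pair of DMSO libraries carry different date-like codes and the methods speak of biological triplicates, but the labels do not state which libraries came from separate cultures. The p-values measure the spread between these libraries, part of which may be technical.

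None of the 5 selecting genes passed the test after P3FI-90 at 24 h. Of 12332 genes, 1 (0.00811%) was higher and none lower by limma, and 110 and 134 were at an unadjusted p under 0.05. TNNC2 was at 4.99, 5.70 and 5.27 TPM in DMSO and 5.20, 7.19 and 4.62 after P3FI-90 (log2 difference 0.06, SE 0.30, adjusted p = 1.0). MYH3 was at 2.17, 4.27 and 1.84 TPM in DMSO and 2.06, 2.65 and 0.980 after P3FI-90. The groups overlapped for both genes. TNNC1 was at 14.4 ± 1.68 TPM (SD, n = 3) in DMSO with a log2 difference of 0.02 (SE 0.35) after P3FI-90, SMPX at 0.860 to 2.40 and 1.28 to 2.68, and MYBPH at 3.39 to 7.91 and 3.64 to 5.14. Of the 126 genes higher in myocyte-like cells, 116 were tested and none passed in either direction.

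After P3FI-63 the selecting genes diverged from each other. MYBPH was at 6.99, 7.91 and 3.39 TPM in DMSO and 0.780 and 1.44 after P3FI-63 (log2 difference -1.70, SE 0.41), and the limma adjusted p was 0.0642. Blocking on replicate number gave a difference of -1.60 and an adjusted p of 0.0353. MYH3 was at 0.590 and 0.160 TPM against 2.17, 4.27 and 1.84 in DMSO (log2 difference -1.41, SE 0.41, limma adjusted p = 0.112), and with the block -1.43 and 0.0245. TNNC1 was at 7.63 and 4.75 TPM after P3FI-63 (log2 difference -1.12, limma adjusted p = 0.163), and with the block its adjusted p was 0.0561. Without P3FI-63 replicate 3, the limma adjusted p was 0.0335 for MYH3, 0.0306 for TNNC1 and 0.0373 for MYBPH. For these 3 genes both P3FI-63 libraries lay below all DMSO libraries. TNNC2 was at 5.90 and 6.87 TPM and SMPX at 2.57 and 1.59, with log2 differences of 0.22 and 0.40 and adjusted p = 0.723 and 0.579.

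**Figure D5:**
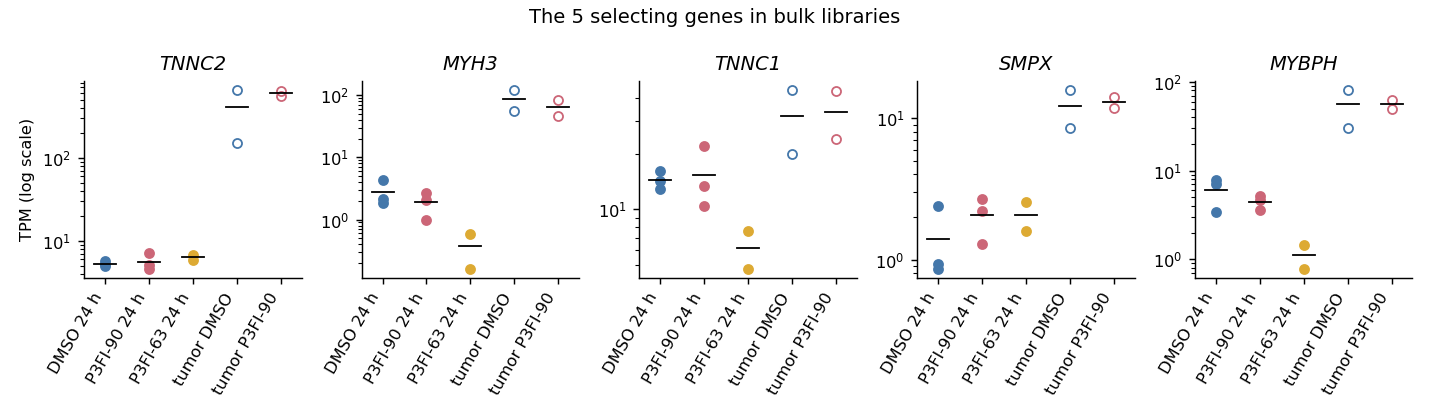
TPM (vertical axes, log scale) of the 5 selecting genes in each bulk library (points) with the group mean (line), for 24 h cultures (filled) and tumors (open). MYH3, TNNC1 and MYBPH are lower in both P3FI-63 libraries than in the 3 DMSO libraries, and TNNC2 in tumors runs from 152 to 652 TPM against 4.62 to 7.19 in 24 h cultures.

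Genes of the myocyte-like cells were more often lower than higher after P3FI-63. Of the 116 tested, 2 were higher (1.72%) and 9 lower (7.76%), where 143 (1.16%) and 149 (1.21%) of all 12332 genes were, and with the replicate block the counts were 3 and 40 against 333 and 1025. Without P3FI-63 replicate 3, 465 genes were higher and 4355 lower over all, and without a DMSO library 43 to 53 were higher and 20 to 28 lower. The median log2 difference was -0.74 over the 116 and -0.35 over all genes. The 9 lower genes were MYOG, RASSF4, VGLL2, MRAS, FNDC5, LRRN1, KREMEN2, TSPAN33 and CAPN6. These names and those below were taken after their values were seen.

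MYOG, myogenin, was at 296 to 390 TPM in DMSO and 52.0 and 129 after P3FI-63 (log2 difference -2.06, SE 0.34, limma adjusted p = 0.0177), with no overlap. VGLL2, a cofactor of TEAD factors in muscle, was at 32.2 ± 12.3 TPM (SD, n = 3) in DMSO and 5.78 ± 2.74 (n = 2) after P3FI-63, with a limma adjusted p of 0.0423. LRRN1, a leucine-rich repeat membrane protein, was at 27.1 ± 1.37 TPM (SD, n = 3) and 2.39 ± 1.56 (n = 2), with a limma adjusted p of 0.00635. The pair that passed in the other direction was CRYAB and ANKRD1, a muscle ankyrin repeat protein. CRYAB was at 37.5 to 63.1 TPM in DMSO and at 213 and 497 after P3FI-63 (limma adjusted p = 0.00752), and ANKRD1 at 20.2 to 45.8 and at 297 and 145 (0.0427).

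The fast light chains did not pass without the block. MYLPF was at 93.6, 52.6 and 69.9 TPM in DMSO and 25.5 and 24.6 after P3FI-63 (log2 difference -1.45, adjusted p = 0.103 by limma, or 0.0289 in the blocked fit). MYL1 was at 123, 52.3 and 115 TPM in DMSO and 30.5 and 53.3 after P3FI-63 (log2 difference -1.15, adjusted p = 0.214 by limma, or 0.0318 in the blocked fit). MYL1 overlapped between the groups in 1 library each. Of 32 contractile genes tested outside the rule, 3 were higher, CRYAB and the actin-binding repeat proteins XIRP1 and XIRP2, and none lower, while the block gave 3 and 9. The selecting genes were also measured in single libraries, which give no test. At 6 h in DMSO and P3FI-90, TNNC2 was at 12.9 and 13.4 TPM, MYH3 at 3.84 and 7.07, TNNC1 at 36.0 and 40.6, SMPX at 5.35 and 4.73 and MYBPH at 12.3 and 16.6. In the compound screen, labelled 24 h, TNNC2 was at 32.2 TPM in DMSO and 34.5 after P3FI-63, MYH3 at 9.19 and 7.13, TNNC1 at 64.6 and 67.0, SMPX at 6.4 and 5.24 and MYBPH at 14.3 and 9.62. The paper also describes P3FI-63 RNA-seq at 6 h, so the time of these screen libraries is not settled.

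In tumors the selecting genes were spread widely within the DMSO group. TNNC2 was at 152 and 652 TPM in the DMSO tumors and 557 and 634 after P3FI-90 (log2 difference 0.91, SE 0.51, limma adjusted p = 0.573). Without the DMSO tumor at 652 TPM the difference was 1.96 and passed the test, and without the P3FI-90 tumor at 557 TPM it was 1.01 and passed. Each of these fits leaves an arm of 1 tumor, which is assumed to vary like the other arm, so that these passes carry little weight. MYH3 was at 55.7 and 122 TPM in DMSO and 84.0 and 46.0 after P3FI-90, and its difference passed (limma adjusted p = 0.0378) without the P3FI-90 tumor at 84.0 TPM, again with 1 tumor in that arm. MYBPH was at 30.2 and 81.0 in DMSO and 61.9 and 49.9 after P3FI-90. All groups overlapped. The first DMSO tumor was the lowest of the 4 for TNNC2, TNNC1, SMPX and MYBPH, and also for MYLPF (403 TPM, against 1120 in the other DMSO tumor). Of 12357 genes, none were higher (0.0%) and 2 lower (0.0162%) by limma, with 72 and 777 at an unadjusted p under 0.05, and without the first P3FI-90 tumor 77 were higher and 1793 lower. None of the 117 tested genes of the myocyte-like cells passed with all tumors in the fit. The effect of P3FI-90 was not found to differ between tumors and cultures for any of the 22 selecting and named genes tested, with a lowest adjusted p of 0.864 by limma. Levels in tumors and cultures were not tested against each other.

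H3K4me3, a mark of active promoters, was found near the start sites of some of these genes in whole cultures and not near others. A peak within 2 kb of the GRCh37 start site was present in all 6 libraries at TNNC1 (chromosome 3, 52485116 to 52488057, minus strand) and at MYLPF (chromosome 16, 30382255 to 30389312, plus strand). At TNNC1 the highest peak in each library had a -log10 p of 67.8 to 311, and at MYLPF 20.2 to 262. TNNC2 (chromosome 20, 44451853 to 44462384, minus strand) had a peak in 4 libraries, with none in replicate 3 of either group. No library had a peak near the start of MYH3, SMPX, MYBPH, HSPB3, TNNT3, MYL1 or RARRES2. Replicate 3 had the fewest peaks in both groups, 16410 and 16662 against 24160 to 29812 elsewhere. Whether a window also held the start site of another gene was not checked. A peak therefore cannot be assigned to the named gene alone.

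All 7 genes lower in the myocyte-like cells had a peak in all 6 libraries. These genes were at 15.0 to 72.8 CPM in the comparison cells. A peak in whole cultures was thus likely beforehand and adds no support. Of the 126 higher genes, 118 were matched, with a peak in all libraries at 49 (41.5%) and in none at 34 (28.8%), against 48.9 and 38.3% of 20175 protein-coding genes. The 126 had passed a filter on expression and the 20175 had not, so these shares are not compared like with like. DMSO and P3FI-90 libraries carried peaks at like numbers of the 118, at 83, 50 and 80 and at 84, 51 and 77. The mark is averaged over the whole culture, of which the myocyte-like cells were a small share, so its absence does not describe the promoters inside those cells.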

How the data were processed

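The deposited single-cell files hold UMI counts per gene and cell, which the authors made with Cell Ranger 6.1.2 on hg19 and left unnormalized. The bulk files hold TPM that the authors estimated with STAR and RSEM on hg19, and library depth cannot be read from them. The ChIP-seq files hold peaks the authors called per library with MACS2 after alignment with BWA, with a -log10 p for each peak as deposited. Versions of STAR, RSEM, BWA and MACS2 were not taken from the submitters' processing notes.

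The cells, selecting genes, gene lists and comparisons were chosen with earlier results of these data known. Counts were summed over the cells of each kind and library and divided by the sum to give CPM. Genes with a mean of at least 10 CPM over myocyte-like and comparison cells in both libraries were kept, 0.5 counts were added for log2 ratios, and a gene was called when it passed 2-fold in both libraries. With 1 library per condition no test was made on cells. Total UMIs were 145739386 in DMSO and 156822590 after P3FI-90 over 13516 and 11415 barcodes. Thinning drew 4000 UMIs per cell at random without replacement. Scrublet called 1 cell per library as a doublet at its automatic threshold, which was therefore not used, and the authors' own doublet removal was not part of the deposited matrices. Scripts ran under Python 3.11.15, and scanpy 1.11.5 scored the doublets.

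For the bulk libraries limma 3.58.1 (R 4.3.3) was fitted to log2(TPM + 1) values with its trend option and a threshold of 0.05 on the adjusted p. Genes entered when their mean reached 1 TPM. There was 1 fit for the 24 h cultures and 1 for the tumors. Libraries of the same replicate number deviated together from their group means in all 7 cross-group pairs (r of 0.31 to 0.64, against -0.40 to 0.06 in 14 other pairs). The numbers come from the labels, and libraries without one were called replicate 1. The blocked value is given where it changes a call. Start sites came from GENCODE on GRCh37, and promoter sequences from RefSeq on GRCh38.p14, with no coordinate passed between builds. Of the gene symbols in the single-cell files, 91 occurred more than once and were matched by gene ID.

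Genes named are the selecting genes, the 12 highest and 8 lowest by the weaker of the 2 ratios, the 6 highest and 6 lowest after P3FI-90, and up to 3 of each list by level and 3 by ratio. Other genes were named after their values were seen. Alternatives were other thresholds, CPM filters and depths, CPM without mitochondrial and ribosomal protein genes, comparison cells at 1 to 4 UMIs, other pseudocounts, scalings and filters for TPM, and leaving out each bulk library. Of the series' 54 samples, 24 were used here. The calculations were tested on simulated data.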

Additional observations from a re-analysis of the deposited data

Results flagged for a closer look

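TCHH, trichohyalin, was lower in myocyte-like than in comparison cells in DMSO (log2 ratio -1.20, 2.58 against 6.35 CPM) and higher after P3FI-90 (3.66, 36.0 against 2.87 CPM), opposite directions that were not tested against each other. Of its 98 P3FI-90 UMIs, 82 were in 1 cell. Among barcodes left out by the gene and mitochondrial filters, 5 of 959 after P3FI-90 (0.521%, 0.169 to 1.21) and 1 of 974 in DMSO (0.103%, 0.00260 to 0.571) had at least 5 UMIs of the selecting genes, up to 219 and 102. The intervals overlap.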

How the results depend on the processing

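Bulk TPM give no depth, 1 library per condition gives no replicate error for single cells, and the tumor groups have 2 libraries each. Counts of myocyte-like cells depend on the threshold. In DMSO and P3FI-90 the share was 2.43 and 2.01% at 3 UMIs, 0.462 and 0.545% at 10, 0.199 and 0.335% at 20, 0.0797 and 0.172% at 60, 0.526 and 0.383% after thinning and 0.789 and 0.765% without TNNC1, and 1.33% in P3FI-90 cells of at least 4000 UMIs. Thresholds of 20 and 60, equal weights, leaving out the cells at 60 or more, cells of at least 4000 UMIs and the highest 3% of Scrublet scores were chosen after seeing the data.

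Genes higher in both libraries numbered 270 at a mean CPM of 2 and 43 at 50. Genes lower numbered 32 at a CPM of 2, 0 at 50, 18 after thinning, 12 without mitochondrial and ribosomal protein genes, 23 with cells at 10 UMIs or more and 1 against cells at 1 to 4 UMIs. With the last setting the contractile medians were 1.27 and 1.45. The G2 and mitosis median in DMSO was -0.39 with cells at 10 or more, -0.28 against cells at 1 to 4 and -0.11 without cells at 60 or more, and the published myoblast medians were -0.41 and -0.54 with cells at 10 or more. Genes higher and lower after P3FI-90 numbered 2 and 0 at a CPM of 50, 240 and 518 after thinning, 55 and 112 with cells at 10 or more, and 73 and 177 with equal weights, and 55 were higher without mitochondrial and ribosomal protein genes. The share of cells with at least 3 G2 and mitosis UMIs after thinning was 93.1 and 84.7%, with 86.3 and 69.4% at 6 UMIs, 99.4 and 94.8% not thinned and 98.1 and 92.1% at 5 to 19 selecting-gene UMIs.

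In bulk, the 24 h P3FI-90 count of higher genes was 0 with no filter or with median-ratio scaling, 3 with the replicate block and 0 to 1 with a library left out. After P3FI-63 the higher genes numbered 232 with no filter, 328 with median-ratio scaling, 333 with the replicate block and 43 to 465 with a library left out, and the lower genes 1025 with the block and 20 to 4355 with a library left out. The upper ends came without P3FI-63 replicate 3, where the lone library is assumed to vary like the others, and the lower ends without a DMSO library. Tumor counts were 6 to 77 higher and 14 to 1793 lower with a tumor left out, the upper ends without tumor P3FI-90 replicate 1. The block changed the calls of MYH3, MYBPH, MYLPF, MYL1, HFE2, HRH1, PIEZO2 and C1QTNF3 after P3FI-63 and of no other selecting gene or gene among the 12 highest and 7 lower tested there, but it changed more genes of the wider lists (contractile genes lower, 0 to 9). No paired analysis was possible for the tumors, whose numbers follow accession order, or for single cells.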
